A study of Mus musculus with 8 samples.

Results

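Heat shock chaperones bind unfolded or partly folded proteins and help them reach, keep or regain their shape. HSP70 proteins work in cycles of ATP hydrolysis that J proteins start and nucleotide exchange factors reset, and HSP90 proteins finish the folding of selected clients. Germ cells of the male carry their own variants of several of these genes beside the forms that most cells make. The genes described here are 9 such chaperones, taken by the gene symbol of the platform annotation. They were 4 genes known from testis (Hspa2, Hspa1l, Hspa4l and Dnajb3) and 5 made in most cells (Hspa5, Hspa8, Hsp90aa1, Hsp90ab1 and Hsp90b1). For 8 of the 9 genes a probe set was named, out of 19411 genes with a probe set of their own. Hsp90ab1, the constitutive cytosolic HSP90, was matched by neither symbol, gene identifier nor accession and was not analysed here. All 8 passed the filter on low values. Hspa8 had 3 probe sets of its own and Hsp90aa1 had 3, and the brightest over all arrays stood for each gene.

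The study measured RNA on Affymetrix gene arrays, 1 per sample, in C57/Bl6 mice fed a control, a low protein or a caloric restriction diet. Sperm from the caudal epididymis gave 3 control, 2 low protein and 1 caloric restriction arrays, and epididymal tissue gave 1 control and 1 low protein array. Control and low protein males were 9 to 12 weeks old; no age is given for caloric restriction, so age and that diet cannot be told apart. Only sperm above 99.5% pure by microscopy were used, and those with Actb or Myh11 detectable by PCR were rejected. The labels do not say whether animals were pooled or whether replicates came from separate animals, so the spread between arrays may be technical. Values are log2 intensities, so 1 unit is a doubling of signal, and levels are compared between arrays for one gene and never between genes.

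The tissue labels were borne out by the late spermatid and epididymal epithelium markers. All 10 late spermatid markers were higher in sperm than in epididymis (median log2 difference 3.73), and 10 of 11 tested epididymal epithelium markers were lower (median -1.41). Of 14 listed epithelium markers, 13 had a probe set, and the 2 brightest, Spink8 and Clu, weigh most in their sum. By equal weight, the mean log2 value was 7.65 to 7.85 in control sperm, and 8.73 and 8.65 in control and low protein epididymis. Summed over the 13, the signal was still 46% to 56.3% of the epididymis in control sperm. It was 36.3% and 21.5% in low protein replicates 1 and 2 and 40% in caloric restriction sperm. For the 7 smooth muscle markers the sums were 10.7% to 12.8%, 8.26% and 5.8%, and 10.1% in the same order. For the 7 fibroblast and matrix markers they were 34.9% to 45.4%, 33.8% and 25.8%, and 40.5%. The 8 leukocyte markers summed to 77.9% to 154%, 136% and 138%, and 171% in the same order. For 7 of 8 listed Sertoli and Leydig markers with a probe set the sums were 104% to 116%, 96.3% and 122%, and 88.4%. Neither list set the tissues apart. No marker has a level of 0 on this scale. In bulk RNA, fewer cells of a type and less RNA per cell cannot be told apart. Low protein replicate 2 stood apart: its r with the remaining sperm arrays ran from 0.71 to 0.86 over the tested genes. Several results that rest on it are given with and without it.

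The upstream sequences of 4 chaperone genes, ER chaperones and germ cell chaperones, are shown first. Any link to the tissue differences was not tested for these sequences. They are the 250 bases before the start site, from RefSeq on GRCm38.p6, which need not be the build behind the arrays. A window was found for 6 of the 8 genes, with Hspa8 and Hsp90aa1 not in the table used here. Capitals mark the ER stress response element, CCAAT and CCACG with 9 bases of any kind between them on either strand, in Hspa5 and Hsp90b1, and the CCAAT box, which that element contains, in Hspa1l and Dnajb3.
Hspa5, chr2:34771840-34772089, plus strand: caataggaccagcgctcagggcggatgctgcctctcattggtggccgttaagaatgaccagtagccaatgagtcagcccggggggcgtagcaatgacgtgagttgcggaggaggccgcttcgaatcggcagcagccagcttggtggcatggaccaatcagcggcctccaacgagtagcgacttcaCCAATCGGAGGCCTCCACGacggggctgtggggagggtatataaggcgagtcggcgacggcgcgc
Hsp90b1, chr10:86705445-86705694, minus strand: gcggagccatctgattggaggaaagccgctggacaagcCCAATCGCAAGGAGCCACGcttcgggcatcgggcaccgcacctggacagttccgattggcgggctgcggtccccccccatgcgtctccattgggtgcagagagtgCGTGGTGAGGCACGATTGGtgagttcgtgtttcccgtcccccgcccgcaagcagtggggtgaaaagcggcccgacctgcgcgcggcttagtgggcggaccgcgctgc
Hspa1l, chr17:34972453-34972702, plus strand: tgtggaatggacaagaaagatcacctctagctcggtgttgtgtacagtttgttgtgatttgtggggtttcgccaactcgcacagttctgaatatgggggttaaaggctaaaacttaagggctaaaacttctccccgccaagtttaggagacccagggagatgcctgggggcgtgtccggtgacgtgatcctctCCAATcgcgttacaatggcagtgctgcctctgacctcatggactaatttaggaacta
Dnajb3, chr1:88205749-88205998, minus strand: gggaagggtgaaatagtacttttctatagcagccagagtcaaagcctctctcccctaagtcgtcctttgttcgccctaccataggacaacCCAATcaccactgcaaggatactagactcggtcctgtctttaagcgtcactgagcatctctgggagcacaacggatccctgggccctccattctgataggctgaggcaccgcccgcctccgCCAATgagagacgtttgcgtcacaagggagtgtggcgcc

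The ER stress response element lay once before Hspa5, at positions -65 to -47 from the start site. It lay 2 times before Hsp90b1, at -212 to -194 and, on the other strand, at -107 to -89. Of all 32851 windows of this length, 37 held it, or 0.113%. None of the 4 testis-known genes had a match in its window. The CCAAT box was found in 33.8% of all windows, among them those of Hspa2, Hspa1l, Dnajb3, Hspa5 and Hsp90b1, and Hspa4l had none. Neither phase of a paired heat shock element (GAANNTTC in 6.7% and TTCNNGAA in 7.2% of all windows) was found before any of the 6 genes. The same held for the cAMP response element (TGACGTCA, 1.5%) and for TATAAA (12.4%). A missing match says only that these letters are not in these 250 bases, and a match is no evidence of binding.

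**Figure D1:**
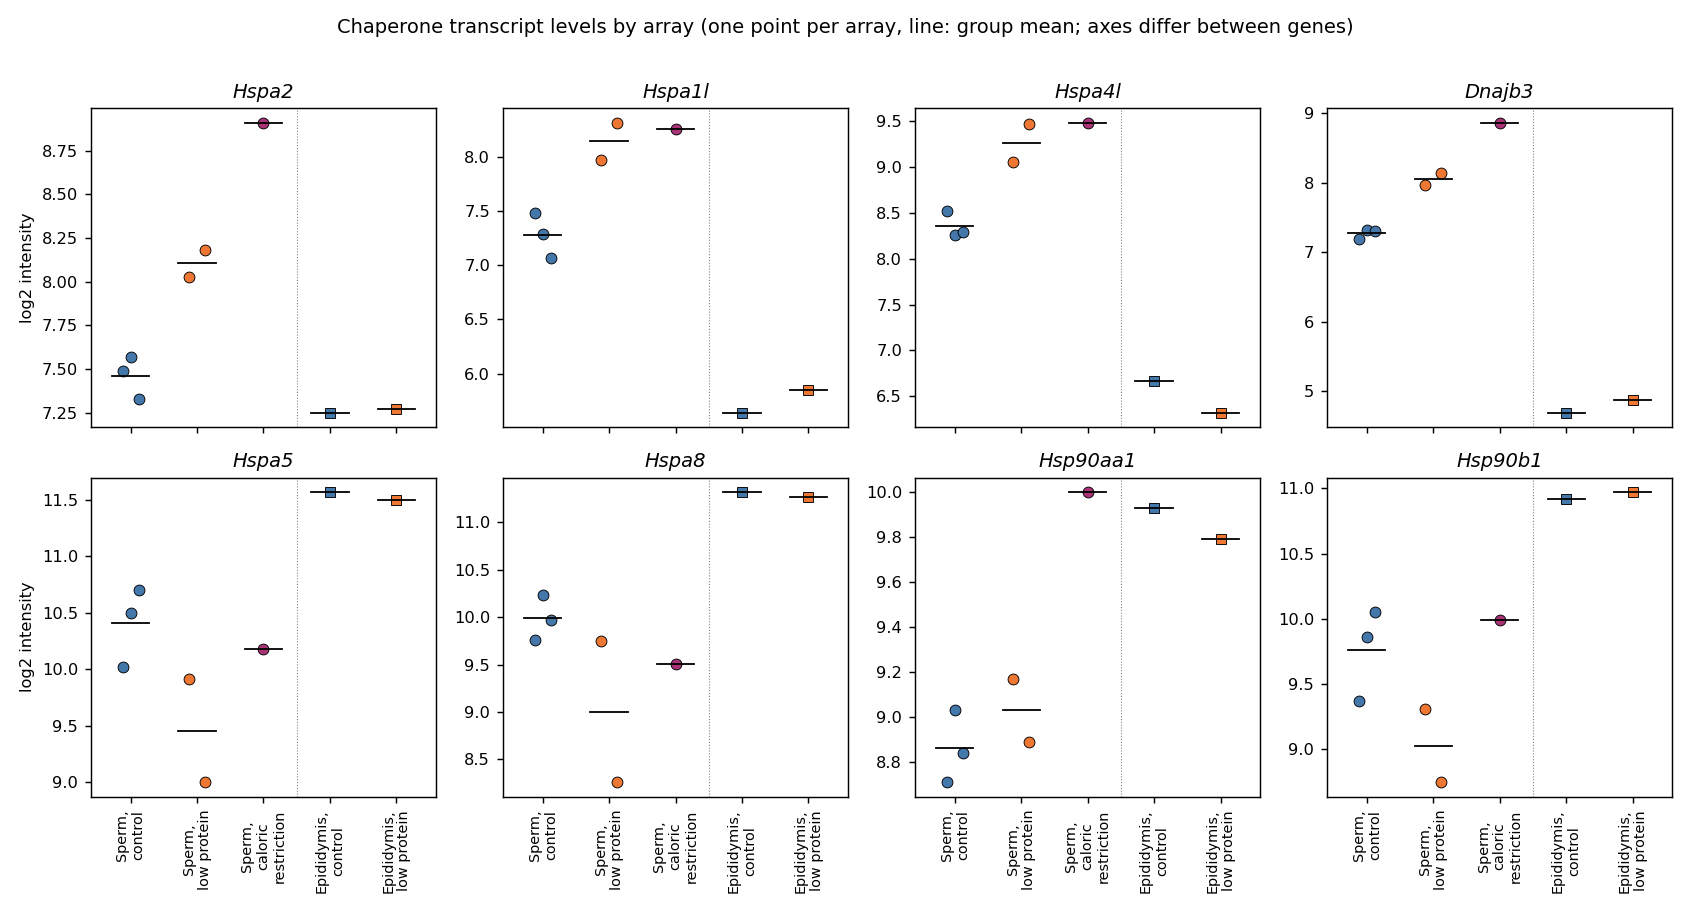
Log2 intensity of each of the 8 chaperone genes on every array, by tissue and diet; each point is 1 array, circles are sperm and squares epididymis, lines are group means, and the vertical axis differs between genes. The testis-known genes in the upper row are lowest in epididymis, and those in the lower row are highest there, except that Hsp90aa1 on the caloric restriction array reaches 10.00, at the level of the epididymis.

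The signal of the 4 testis-known chaperones was higher in sperm than in epididymis, and that of the 4 that most cells make was lower. Array medians were near equal, at 6.08 to 6.17, so these are levels relative to other RNA on an array and not amounts per cell. All 8 passed the test between sperm and epididymis, 4 higher and 4 lower. In the background, 18.4% of the 13587 tested genes were called higher and 30.1% lower, so nearly every other gene passed and the count by itself is no feature of chaperones. The comparison used limma with tissue and diet as terms. Since a diet term absorbs the single caloric restriction array, each tissue difference rests on 5 sperm and 2 epididymis arrays. Every sperm array lay above both epididymis arrays for 4 of the 8 genes (24.8% of all tested genes) and below both for 3 (35.6%).

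Dnajb3, a J protein of spermatids also known as MSJ-1, stood farthest apart. Its levels were 7.19, 7.32 and 7.30 in control sperm, 7.96 and 8.14 in low protein sperm, 8.86 in caloric restriction sperm, and 4.69 and 4.87 in control and low protein epididymis. Every sperm array was far above both epididymis arrays. Dnajb3 rose by 2.86 ± 0.17 (SE; 5 sperm and 2 epididymis arrays; adjusted p by limma 2.03e-05), which is 7.27-fold.

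Hspa4l, a nucleotide exchange factor of the HSP110 family that is abundant in testis, read 8.52, 8.26 and 8.29 in control sperm. It read 9.05 and 9.47 in low protein sperm, 9.48 in caloric restriction sperm, and 6.67 and 6.32 in control and low protein epididymis. The sperm and epididymis arrays did not overlap. Hspa4l rose by 2.28 ± 0.27 (SE; adjusted p by limma 0.000316), or 4.84-fold.

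Hspa1l, an HSP70 made after meiosis in spermatids, read 7.48, 7.29 and 7.07 in control, 7.97 and 8.31 in low protein sperm, with 8.25 under caloric restriction. The epididymis arrays were at 5.64 for control and 5.85 for low protein, below all sperm arrays. The rise was 1.95 ± 0.20 (SE; adjusted p by limma 0.000164), or 3.86-fold.

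Hspa2, an HSP70 made in spermatocytes and required for male meiosis in the mouse, differed least of the 4. It read 7.49, 7.57 and 7.33 in control, 8.03 and 8.18 in low protein sperm, with 8.91 under caloric restriction, and 7.25 and 7.27 in control and low protein epididymis. The sperm arrays were all above the epididymis, but the lowest control sperm array was only slightly above it. Hspa2 rose by 0.51 ± 0.18 (SE; adjusted p by limma 0.0396), or 1.42-fold. Over all 6 sperm arrays with no diet term it did not pass (0.66 ± 0.36; SE; adjusted p by limma 0.159). Within the control diet the difference was 0.22 ± 0.21 (SE; 3 sperm arrays and 1 epididymis array; adjusted p by limma 0.477), and within low protein it was 0.84 ± 0.22 (SE; adjusted p by limma 0.0205). The call was also lost without control replicate 1 or 2, or without low protein replicate 1 (adjusted p by limma 0.0743, 0.0798 and 0.0665), and after median centring of the arrays (0.0594).

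The ER chaperones moved the other way. Hspa5, also called BiP, is the HSP70 of the endoplasmic reticulum. It read 10.02, 10.50 and 10.70 in control, 9.91 and 9.00 in low protein sperm, with 10.18 under caloric restriction, and 11.57 and 11.50 in control and low protein epididymis. No sperm array reached the epididymis. Hspa5 fell by 1.58 ± 0.30 (SE; adjusted p by limma 0.0032), to a level 2.99-fold lower.

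Hsp90b1, or GRP94, is the HSP90 of the endoplasmic reticulum. Its levels were 9.37, 9.86 and 10.05 in control, 9.31 and 8.75 in low protein sperm, with 9.99 under caloric restriction, and 10.92 and 10.97 in control and low protein epididymis. The groups did not overlap between tissues. It fell by 1.53 ± 0.26 (SE; adjusted p by limma 0.0017), to a level 2.88-fold lower.

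Of the cytosolic pair, Hspa8 is the constitutive HSP70 that also strips clathrin from vesicles. It read 9.76, 10.23 and 9.97 in control, 9.75 and 8.26 in low protein sperm, with 9.51 under caloric restriction, against 11.32 and 11.27 in control and low protein epididymis. All sperm arrays were lower, and low protein replicate 2 was the lowest by a wide margin. Hspa8 fell by 1.77 ± 0.38 (SE; adjusted p by limma 0.005), to a level 3.42-fold lower, and by 1.41 ± 0.16 without that array. Within the control diet the differences of Hspa5 and Hspa8 were -1.16 ± 0.38 and -1.33 ± 0.49 (SE; adjusted p by limma 0.0681 and 0.0937), so both calls need the low protein epididymis array.

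Hsp90aa1, the inducible cytosolic HSP90, which mouse spermatogenesis also requires, did not follow the others. It read 8.71, 9.03 and 8.84 in control and 9.17 and 8.89 in low protein sperm, below the 9.93 and 9.79 of control and low protein epididymis. The caloric restriction array, at 10.00, lay above both epididymis arrays, so the tissues overlap. The fall of 0.92 ± 0.16 (SE; adjusted p by limma 0.00213) therefore describes the control and low protein arrays. It was smaller on the other probe sets of the gene, at -0.61 on the second brightest and -0.53 on the dimmest (adjusted p by limma 0.0145 and 0.0341). With all 6 sperm arrays and no diet term the difference was -0.75 (adjusted p by limma 0.0637). After quantile normalization it was -0.41 and after cyclic loess -0.40, with adjusted p by limma 0.0733 and 0.0998. Those steps moved the median difference of all genes from -0.08 to 0.02 and 0.05.

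**Figure D2:**
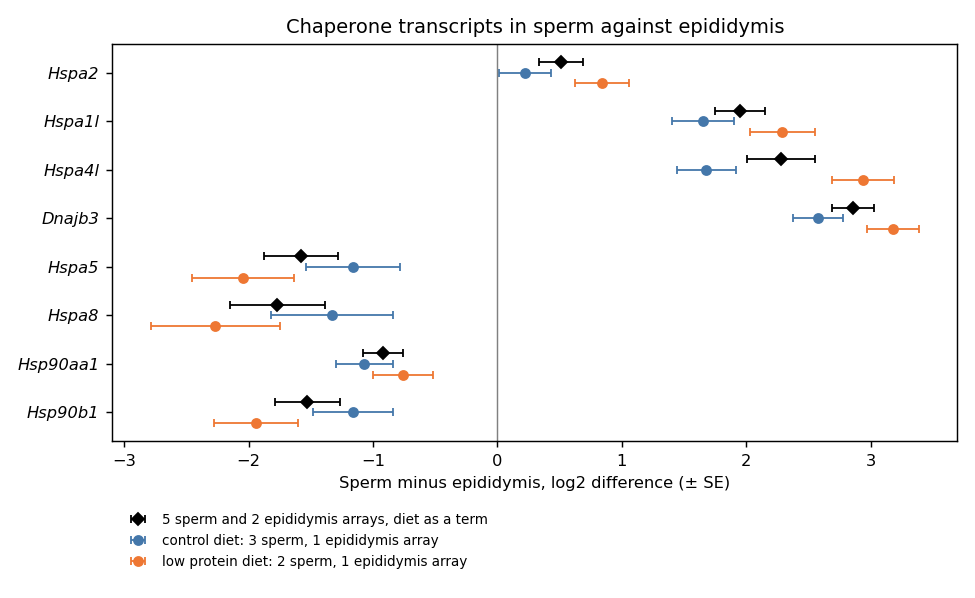
Log2 difference of sperm minus epididymis with its SE for the 8 chaperone genes, over both diets (diamonds) and within the control and low protein diets (circles). Dnajb3, Hspa4l and Hspa1l lie at 1.65 or more in each, Hspa2 is near 0 in the control diet, and the other genes lie below 0.

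The germ cell and epithelium marker sums moved with these differences. Late spermatid markers summed to 716% to 1010% of the epididymis in control sperm, 1170% and 1460% in low protein sperm, with 1210% under caloric restriction. The 10 meiotic and earlier germ cell markers summed to 137% to 152%, 176% and 210%, and 278% in the same order. Zbtb16 and Kit were the brightest of these in epididymis and weigh most in the sum there. Their differences of sperm minus epididymis were -0.31 and -0.91, against 2.76 for Mael and 2.69 for Ddx4, so the sums dilute such rises. Of the 6 tested meiotic markers 4 were called higher in sperm and 1 lower by limma (median 1.36). The epithelium sums given above ran the other way. The part of cell composition in the chaperone differences was not tested.

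Other genes of the chaperone network were read as lists against the 18.4% of all tested genes called higher and 30.1% called lower. Of 11 tested J proteins and chaperones known from testis (13 listed), 10 rose in sperm and 0 fell, with a median difference of 2.39 against -0.08 over all tested genes. The small heat shock protein gene Hspb9 rose by 4.05 ± 0.20, Tcp11, a testis gene that is no J protein, by 4.02 ± 0.18 and the J protein gene Dnajb8 by 3.07 ± 0.23 (SE; adjusted p by limma 1.3e-05, 1.23e-05 and 4.41e-05). Calr3, a calreticulin of germ cells, did not pass (0.27 ± 0.21).

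Of the 20 tested genes of ER folding and the unfolded protein response, 13 fell and 0 rose (median -1.23), where 30.1% of all genes were called lower. The disulfide isomerase gene Pdia3 fell by 1.92 ± 0.28, the lectin chaperone gene Canx fell by 1.81 ± 0.34 and the ER J protein gene Dnajb9 fell by 1.72 ± 0.18 (SE; adjusted p by limma 0.000896, 0.00298 and 0.000188). The ER stress response element shown above was also present before 5 of the 17 genes of this list with a window, namely Calr, Canx, Pdia6, Dnajc3 and Creld2. Creld2 did not pass (-0.39 ± 0.17; SE; adjusted p by limma 0.0913), and Pdia3 and Dnajb9 were not among the 5. Any link of the element to the falls was not tested. Of 7 other HSP70 and HSP110 genes tested 6 fell (median -0.75), among them Hspa13 by -1.68, the mitochondrial Hspa9 by -1.61 and Hspa4, the common relative of Hspa4l, by -0.99. Of 11 chaperonin and mitochondrial chaperone genes 10 fell (median -0.83), with the ring subunits Cct6a at -1.70 and Cct8 at -1.39 and the mitochondrial Hspd1 at -1.63. Cct6b, the testis form of Cct6a and named after its value was seen, rose by 2.47 ± 0.26 (SE; adjusted p by limma 0.000175).

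The cofactors were mixed. Of 20 HSP90 and HSP70 cochaperones 2 rose and 6 fell (median -0.44), and of 12 J proteins listed as cytosolic 3 rose and 3 fell (median 0.03). Both shares of falls are near the 30.1% of all genes called lower. The rises were those of Bag1 and Bag5, nucleotide exchange factors of HSP70, by 1.71 ± 0.22 and 1.68 ± 0.19, and the HSP90 cochaperone gene Ptges3, which encodes p23, fell by 2.05 ± 0.19 (SE; adjusted p by limma 0.000466, 0.000268 and 0.000106). Among these J proteins Dnajb14, whose product is anchored in the ER membrane, was at 2.50, Dnaja1 at -1.50 and Dnaja2 at -1.18. Of 7 small heat shock proteins 1 rose and 4 fell (median -0.67), led by Hspb8 at -1.86, Hspb6 at -1.33 and Hspb1 at -0.68. Of 4 heat shock factors and partners 2 rose, the germ cell factor gene Hsf5 by 1.96 and Hsf2bp, whose product acts in meiotic recombination, by 1.64, while Hsf4 did not pass (0.37). These lists share cells and arrays with the 8 genes and are no independent support for them.

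**Figure D3:**
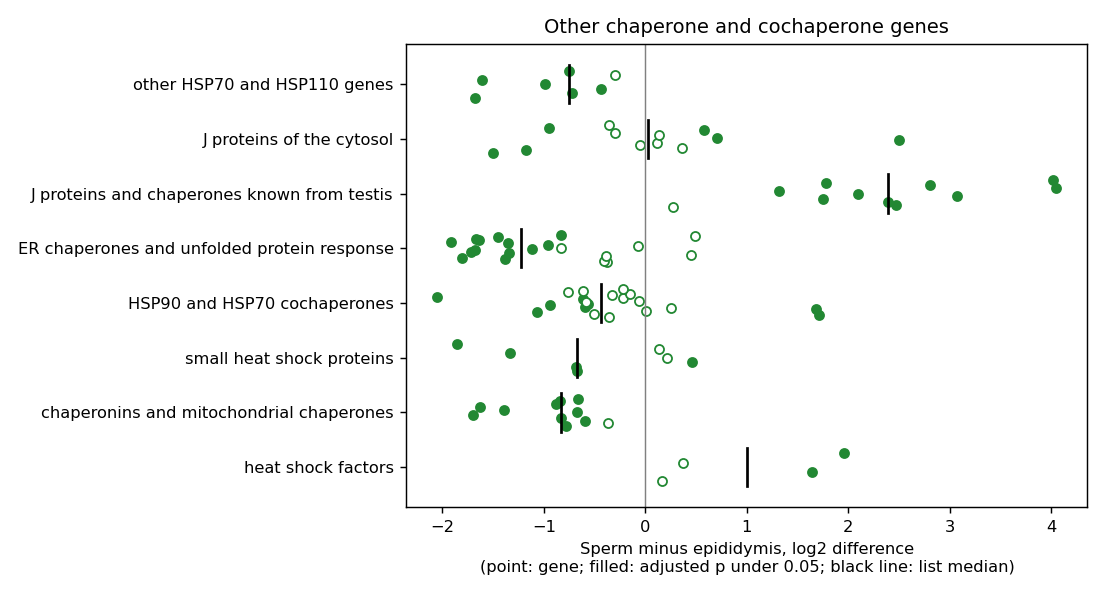
Log2 difference of sperm minus epididymis for every tested gene of 8 chaperone and cochaperone lists; each point is a gene, filled where it passed the test, and black lines are list medians. The testis list has its median at 2.39 and the ER list at -1.23.

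Under the low protein diet the sperm levels of all 4 testis-known chaperones lay above control, and those of the ER chaperones and Hspa8 below, but no gene passed. By limma 0 of 8 genes were called, as were 0% of all tested genes, and eBayes with a trend and robust eBayes also called 0. At an unadjusted p under 0.05 by limma, 4 of 8 were higher against 11.9% of all genes, and 3 of 8 lower against 13.1%. Hspa4l differed by 0.91 ± 0.19 (SE; 2 against 3 arrays; adjusted p by limma 0.0847), Hspa1l by 0.86 ± 0.19 (0.0869), Dnajb3 by 0.78 ± 0.16 (0.0847) and Hspa2 by 0.64 ± 0.16 (0.102). For each of these 4, both low protein arrays were above all 3 control arrays, which held for 18.8% of all tested genes.

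The lower values were less even between the pair of low protein arrays. Hspa8 differed by -0.98 ± 0.39 (SE; adjusted p by limma 0.18), Hspa5 by -0.95 ± 0.30 (0.141) and Hsp90b1 by -0.73 ± 0.25 (0.157). Both low protein arrays were below all controls for these genes, as for 22.4% of all tested genes. Without low protein replicate 2 the 3 differences were -0.23, -0.50 and -0.45, while the 4 testis-known genes kept 0.56 to 0.70. Hsp90aa1 differed by 0.17, with a 95% interval from -0.24 to 0.59 and overlapping groups. Without low protein replicate 1, leaving 1 array that is assumed to vary like the controls, 7 of the 8 genes were called, 4 higher and 3 lower, and so were 37.9% of all tested genes.

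On the single caloric restriction sperm array limma called 4 of 8 genes higher than in control sperm and 0 lower, against 5.53% of all tested genes called higher and 0.0368% lower. Dnajb3 rose by 1.59 ± 0.20 (SE; 1 array against 3; adjusted p by limma 0.00432) and Hspa2 by 1.45 ± 0.21 (0.00667), which are 3.00-fold and 2.73-fold. Hsp90aa1 rose by 1.14 ± 0.23 (0.0254) and Hspa4l by 1.13 ± 0.24 (0.0336). Hspa1l differed by 0.96 ± 0.25 and did not pass, but its side of the threshold changed with the normalization. Its difference was 1.01 after median centring and 1.08 after cyclic loess. These tests take their spread from the sperm arrays with replicates and describe that one array.

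Dnajb3 and Hspa2 passed without any 1 of the control or low protein arrays. Hsp90aa1 and Hspa4l did not pass without any 1 of the 3 control arrays. The call of Hspa4l was also lost after quantile normalization (1.04, adjusted p by limma 0.14), cyclic loess (1.28, 0.0504) and with an eBayes trend (0.0682), and that of Hsp90aa1 with the trend (0.0641). The other probe sets of Hsp90aa1 showed the same pattern: the caloric restriction array was at 10.00, 10.00 and 9.83 on the 3 probe sets, and control sperm between 8.68 and 9.07. On the dimmest the difference was 0.98 (adjusted p by limma 0.06). For Hspa5, Hspa8 and Hsp90b1 the differences were -0.23, -0.47 and 0.23, with 95% intervals from -1.11 to 0.66, -1.61 to 0.66 and -0.51 to 0.98. For Hspa5 and Hspa8 the intervals reach below -1, so these arrays leave falls of that size possible.

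Low protein and caloric restriction sperm differed most in Hsp90aa1, Hsp90b1, Hspa2 and Dnajb3, all lower under low protein and none past the test. Hsp90aa1 differed by -0.97 ± 0.24, Hsp90b1 by -0.96 ± 0.34, Hspa2 by -0.81 ± 0.22 and Dnajb3 by -0.81 ± 0.21 (SE; 2 low protein arrays and 1 caloric restriction array; adjusted p by limma 0.179, 0.388, 0.225 and 0.21). Limma called 0 of 8 genes and 0% of all, and eBayes with a trend and robust eBayes called 0 of the 8. At an unadjusted p under 0.05 by limma, 4 of 8 were lower, against 7.37% of all genes. Without any 1 of the control or low protein arrays, Hsp90aa1 ran from -1.11 to -0.82 and Hsp90b1 from -1.25 to -0.68. Hspa2 ran from -0.88 to -0.73 and Dnajb3 from -0.90 to -0.72. Hspa1l and Hspa4l differed by -0.11 and -0.22, with 95% intervals from -0.71 to 0.50 and -0.81 to 0.37.

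With both restricted diets together, 3 of 8 genes passed against control, all higher, against 2.72% of all tested genes called higher and 0.0294% lower. Dnajb3 rose by 1.05 ± 0.23, Hspa4l by 0.98 ± 0.18 and Hspa1l by 0.89 ± 0.17 (SE; 3 restricted and 3 control arrays; adjusted p by limma 0.0484, 0.0411 and 0.0411). Hspa2 differed by 0.91 ± 0.23 (0.0698). For these 4 genes the restricted and control arrays did not overlap, as for 15% of all tested genes in that direction. Hspa8 was lower without overlap, as were 18.1% of all. Hspa8, Hspa5 and Hsp90b1 differed by -0.81, -0.71 and -0.41 and Hsp90aa1 by 0.50, none past the test (adjusted p by limma 0.175, 0.175, 0.423 and 0.265). Without low protein replicate 2 these 4 differences were -0.35, -0.36, -0.11 and 0.73. Leaving out any single control array brought the count to 0, as did leaving out caloric restriction, and 0% of all tested genes were then called. The count was 4 without either low protein array, when 10.5% (without replicate 1) and 4.81% (without replicate 2) of all were called. This comparison and the 2 diet comparisons before it share the same 3 control arrays. The sums of the late spermatid, meiotic, epithelium and smooth muscle markers, given above, did not overlap between control and restricted sperm either. Those of the fibroblast, leukocyte, and Sertoli and Leydig markers overlapped. Of the 6 tested meiotic markers 4 lay above control on the caloric restriction array. Mael and Ddx4, both of the germ line and named after their values were seen, rose there by 2.02 and 1.87. Zbtb16 and Kit went the other way on that array. They read 6.93 and 6.34, against 7.37 to 7.54 and 6.54 to 6.97 in control sperm. The part of these markers in the chaperone differences was not tested.

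**Figure D4:**
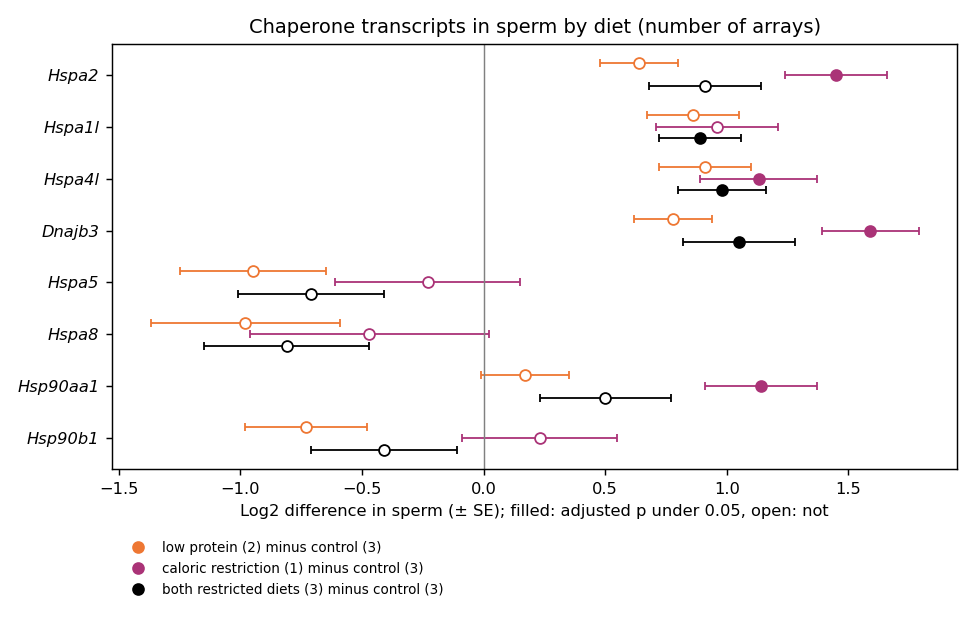
Log2 difference in sperm with its SE for the 8 chaperone genes under low protein, caloric restriction and both restricted diets, each against control; filled points passed the test and open points did not. The 4 testis-known genes lie between 0.64 and 1.59, while Hspa5 and Hspa8 lie below 0 and Hsp90aa1 moves chiefly on the caloric restriction array, by 1.14.

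Among the listed partners in sperm, 5 of 11 testis J proteins and chaperones were higher on the caloric restriction array and 6 of 11 under both restricted diets together by limma, with none lower, against 5.53% and 2.72% of all tested genes called higher. The 5 were Pdilt, a disulfide isomerase homolog of testis (2.29 ± 0.23), Dnajc5b (1.71 ± 0.27), the sperm tail J protein gene Dnajb13 (1.70 ± 0.23), Clgn, an ER chaperone needed for sperm to bind the egg coat (1.49 ± 0.20), and Dnajb8 (1.21 ± 0.27; SE; adjusted p by limma 0.00249, 0.0106, 0.00518, 0.00493 and 0.0413). Of 20 ER folding genes 0 passed in either comparison by limma, with medians of -0.24 and -0.42 against -0.11 and -0.07 over all genes. Bag5 rose on the caloric restriction array by 1.07 ± 0.22 (adjusted p by limma 0.0317) and under both diets by 0.90 ± 0.17 (0.0411), and Bag1 under both diets by 0.83 ± 0.18 (0.0458). Apart from Bag1, Bag5, Clgn and Dnajb8, the genes of this paragraph were named after their values were seen.

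In epididymal tissue, with 1 array per diet and no test, low protein minus control ran from -0.35 for Hspa4l to 0.22 for Hspa1l. Dnajb3 differed by 0.19, Hsp90aa1 by -0.14, Hspa5 by -0.07, Hspa8 by -0.05, Hsp90b1 by 0.04 and Hspa2 by 0.02. The SD of this difference over all tested genes was 0.19. The diet difference in sperm minus that in epididymis was called for 0 of 8 genes and 0% of all by limma, with 0 by eBayes with a trend or robust eBayes (smallest adjusted p by limma over all genes 0.875). At an unadjusted p under 0.05 by limma 1 of 8 was higher, Hspa4l by 1.26 ± 0.35, against 4.06% of all genes.

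Across the 8 arrays, each chaperone had close neighbours by Pearson's r, given as a description of arrays that split chiefly by tissue. Hspa5 was most like the ER disulfide isomerase gene Pdia6 (0.998), Srsf2 (0.998) and the ER J protein gene Dnajc10 (0.997). Dnajb3 was most like Lrrc46 (0.999), the ER chaperone gene Clgn (0.998) and Fam229b (0.997). Hspa1l was most like Otub2, Ccdc38 and Ccdc30 (0.998 to 0.999), and Hspa4l like the sperm protease gene Prss39, Spata21 and Tcte1 (each 0.998). Hspa2 was most like the intraflagellar transport gene Ift74, the recombination gene Rad54l and Clpx (0.994 to 0.995). Hspa8 was most like Zfp971, Trpc4ap and Commd3 (each 0.998), Hsp90b1 like Uri1, Saraf and Erbin (0.993 to 0.997), and Hsp90aa1 like Riok1, Ppwd1 and Kat7 (0.989 to 0.993). Within the group, r over the 8 arrays was 0.98 to 0.99 among Hspa1l, Hspa4l and Dnajb3 and 0.93 to 0.98 among Hspa5, Hspa8 and Hsp90b1. Over the 6 sperm arrays Hspa2 and Dnajb3 had r = 0.99 and Hsp90aa1 had 0.87 and 0.86 with them, where over all 8 arrays Hsp90aa1 had 0.20 with Hspa2 and -0.38 with Dnajb3.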

How the data were processed

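The deposited table holds log2 intensity for 33660 probe sets on each of 8 arrays, made by the authors with RMA per the submitters' processing notes; the sources used here give neither its version nor a genome build. They ran from 1.17 to 14.53, with array medians of 6.08 to 6.17. By the platform annotation 21222 probe sets carried 1 gene each, 1541 several, while 10897 had no name here. Gene identifiers gave a current symbol (GRCm38.p6) for 21137 of the 21222. The brightest probe set stood for each of 19411 genes. The lowest 30% by mean (log2 5.69 and below) were left out and 13587 genes tested.

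Differences were tested by limma 3.58.1 with R 4.3.3 (lmFit, eBayes, two-sided, Benjamini-Hochberg over 13587 genes, threshold 0.05). The fits were also run on simulated arrays with known changes. Their noise was independent between genes, so they do not cover an array that stands apart as a whole. Tissue was fitted over 8 arrays with diet as a term; sperm diets over 6 arrays; the tissue difference of the diet effect over 8. Marker sums add linear intensities and are set against the mean of both epididymis arrays. Named genes are the chaperones, the 3 genes most like each by Pearson's r, and up to 3 genes per list with the largest tissue difference, except where stated. The genes and lists were chosen with earlier results of these data known. Alternatives were other normalizations, filters, probe sets, eBayes settings and thresholds, and leaving out each array.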

Additional observations from a re-analysis of the deposited data

How the results depend on the processing

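Of 888 gene differences under the alternatives, 808 kept their direction and their side of the threshold, 48 lost a call, 28 gained one and 4 changed sign. Many could not change: the probe set alternatives alter only Hspa8 and Hsp90aa1, and leaving out caloric restriction cannot alter the tissue fit. The threshold alternatives recompute no difference, and the tissue fits within 1 diet repeat those without 1 epididymis array. The 808 is therefore no measure of robustness. All 4 changes of sign were between low protein and caloric restriction sperm, none past the threshold: Hspa1l was 0.13 and Hspa4l 0.04 after quantile normalization, Hspa1l was 0.07 without low protein replicate 1 and Hspa8 0.24 without replicate 2. Without 1 array these ran from -0.28 to 0.07 for Hspa1l and -1.25 to 0.24 for Hspa8. Between tissues the genes called numbered 8, 5 in the control diet alone and 5 to 8 without 1 array. For low protein against control the count of 0 became 1 after cyclic loess, 3 at an adjusted p under 0.10, and 0 to 7 without 1 array. For caloric restriction the 4 became 2 with an eBayes trend, 2 at an adjusted p under 0.01, and 2 to 5 without 1 array. For both restricted diets the 3 became 0 with an eBayes trend, 0 at an adjusted p under 0.01, and 0 to 4 without 1 array. Between the restricted diets the range without 1 array was 0 to 4, and for the diet effect compared between tissues 0 to 3, each highest without low protein replicate 1. The causes were not tested. The probe set alternatives for Hspa8 and Hsp90aa1 were chosen after seeing the data.

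Over all genes the tissue calls numbered 6594 (37.9% higher), 6885 after cyclic loess (50.8% higher), 4176 at an adjusted p under 0.01 and 2748 in the control diet alone. For caloric restriction the 756 became 322 at that threshold and 298 to 2021 without 1 array. For both restricted diets the 373 became 589 after cyclic loess, 197 with the lowest 50% left out, 168 with an eBayes trend, 1091 at an adjusted p under 0.10 and 0 to 1428 without 1 array. For low protein the 0 became 237 after cyclic loess, 592 at an adjusted p under 0.10 and up to 5155 without low protein replicate 1. Between the restricted diets the 0 became 135 after cyclic loess, 23 with a trend, 131 at an adjusted p under 0.10 and up to 1956; for the tissue difference it became up to 1639. No paired analysis was possible because the labels give the arrays letters and no replicate numbers shared between groups. The number of arrays limits the precision, and with single arrays for caloric restriction and for each epididymis diet their own spread is unknown.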

Other observations

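Hsf2, the gene of a heat shock factor active in spermatogenesis, was named after its values were seen. It read 5.89, 6.42 and 5.97 in control sperm, 6.60 and 6.36 in low protein sperm, 7.78 in caloric restriction sperm, and 6.29 and 5.91 in control and low protein epididymis. The caloric restriction array alone stood apart, by 1.69 ± 0.26 from control sperm (SE; 1 against 3 arrays; adjusted p by limma 0.00917). The heat-inducible Hspa1a went the other way on that array, at 6.50 against 6.68 to 7.06 in control sperm and 7.37 and 7.35 in control and low protein epididymis. Signals of Hspa1a and its near-identical copy Hspa1b, which had no probe set of its own here, may not be separable on the array, and the difference of -0.42 did not pass (adjusted p by limma 0.392).

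The 3 probe sets of Hspa8 agreed closely, with values between 7.97 and 8.26 on low protein replicate 2 and between 9.59 and 9.75 on replicate 1. A further pair of probe sets, annotated to Hspa8 and to the small nucleolar RNAs Snord14c and Snord14d, read 5.13 and 5.16 on low protein replicate 2 and 5.85 to 6.60 on the other sperm arrays.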
